A study of Mus musculus with 16 samples.

Results

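Mouse embryonic stem (ES) cells of clone 10 were compared with and without Rybp, at 2 times after the gene was removed. The 8 arrays titled for this clone were used, of 16 arrays in the series. The KO group holds the 4 arrays of cells that had been given 4-hydroxytamoxifen (OHT) at 800 nM for 24 hours to deplete Rybp, 2 arrays at day 4 and 2 at day 12. The control group holds 4 arrays of the same clone without OHT, labelled wild-type, also 2 at day 4 and 2 at day 12. All cells were of a 129/B6 hybrid background. They were kept on gelatin or on irradiated mouse embryonic fibroblasts, in serum supplemented with leukaemia inhibitory factor. The other 8 arrays are the same groups of clone 15. No control received OHT, so a response to the drug or to the enzyme it switches on cannot be told apart from a response to the loss of Rybp. Clone 10 is a single line. Nothing in the labels gives the replicates separate cultures, and p-values rest on a spread between arrays that could be technical only. Which cells grew on fibroblasts is not stated for any array.

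Rybp is a subunit of variant forms of Polycomb repressive complex 1 (PRC1), which place ubiquitin on histone H2A and keep target genes silent. It binds the catalytic Ring1 proteins and the transcription factor Yy1. One of these variant complexes carries Pcgf6, L3mbtl2, E2f6 and the DNA-binding pair Mga and Max, and is known in ES cells for holding germ cell and meiosis genes silent. A small share of ES cells in culture passes through a state that resembles the 2-cell embryo, marked by Zscan4 and by families of genes that are otherwise silent.

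The Rybp signal fell at both days. Probe set 1421111_at, which carries the symbols of Rybp and of its pseudogene, had intensities of 88.5 and 91.0 at day 4 and 143 and 109 at day 12 in KO cells, against 2047 and 3319 at day 4 and 2749 and 3434 at day 12 in control cells. No KO array reached any control array. KO over control was -4.74 ± 0.21 on the log2 scale (limma adjusted p = 0.0013), a 26.8-fold fall. The other probe set with these symbols, 1428219_at, read 4443 and 7612 at day 4 and 2815 and 4227 at day 12 in KO cells, against 2127 and 2771 at day 4 and 1404 and 2108 at day 12 in control cells. The log2 fold change was 1.13 ± 0.26 (limma adjusted p = 0.241). It read higher on every KO array than on the control arrays of its day. The 2 probe sets thus moved in opposite directions, and probe positions and deleted exons are not given in the sources used here. Yaf2, the close paralogue of Rybp, read 463 to 645 in KO cells and 249 to 512 in control cells. On the log2 scale KO over control was 0.53 ± 0.20 (limma adjusted p = 0.49).

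Marker genes of ES cells were bright in both groups, while endoderm signal varied between arrays. The pluripotency factor gene Pou5f1 read 10539 to 12040.1 in KO cells and 10734 to 12590.2 in control cells, and Nanog read 9118 to 10817 in KO cells and 8503 to 9601 in control cells. Both were bright on every array, with log2 fold changes of -0.06 and 0.09. The fibroblast gene Col1a1 read 429 and 174 at day 4 and 278 and 512 at day 12 in KO cells, against 299.6 and 108 at day 4 and 277 and 414 at day 12 in control cells, lowest in replicate 2 of day 4 on both sides. The 43 measured fibroblast genes summed to between 39489 and 60007 in KO arrays and between 35879 and 61086 in control arrays. Of the 8 defining fibroblast markers 6 lay above the 25th percentile of intensity (28.3) on every array. The other two, Lum (19.9 to 59.4 in KO cells and 19 to 67.1 in control cells) and Dcn (8.52 to 41.2 in KO cells and 7.17 to 109.9 in control cells), lay on both sides of it. Dab2, a primitive endoderm gene, read 268 and 165 at day 4 and 5209 and 2955 at day 12 in KO cells, against 251 and 198 at day 4 and 2992 and 2717 at day 12 in control cells, with every day 12 array above every day 4 array on both sides. The 37 measured primitive and visceral endoderm genes summed to between 28512 and 113596 in KO arrays and between 26129 and 85061 in control arrays. The 3' over 5' signal of the Gapdh control, a sign of RNA integrity, was -0.28 ± 0.03 in KO and -0.32 ± 0.03 in control arrays on the log2 scale (SD, n = 4). That of the transferrin receptor was 1.23 ± 0.20 in KO and 1.17 ± 0.16 in control arrays. For actin it was 0.53 ± 0.05 and 0.49 ± 0.07, and for pyruvate carboxylase 0.83 ± 0.34 and 0.84 ± 0.45. KO was above the control array of the same day and replicate number in 4 of 4 comparisons for Gapdh and 3 for actin. For the transferrin receptor and pyruvate carboxylase it was above in 2 each. The part that feeder content, endoderm content or RNA integrity plays in the results was not tested.

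The response common to both days was almost wholly upward. Over 18195 entries, one for each gene measured plus both Rybp probe sets, 43 genes (0.236% of entries) were higher and 5 entries (0.0275%), Rybp among them, were lower in KO cells at an adjusted p under 0.05 (limma, with day as a term). At an unadjusted p under 0.05 there were 1673 entries (9.19%). The 43 increases ran from 1.19 to 8.35 on the log2 scale. In all 43, both KO arrays lay above both control arrays at each day, a pattern held by 1196 entries (6.57%) upward and 686 (3.77%) downward. The control mean lay under the 25th percentile of intensity (28.3) for 15 of the 43, and above the median intensity (93.3) for 17, so part of the response came from genes near background in control cells and part from genes well above it. For dim genes a second fold is given below, with every value under 28.3 raised to it, called the floored fold. These counts depended on single arrays. The count of 43 was 9 without KO day 12 replicate 2, 11 without KO day 12 replicate 1, 19 without KO day 4 replicate 1, 26 without control day 4 replicate 1, 22 without control day 12 replicate 1 and 28 without control day 12 replicate 2. The count of 5 was 1, 2, 2 and 3 without the first 4 of these arrays. The 10 entries that kept their call in all 8 fits without 1 array were Rybp, AF067061, Gm20767, Usp17la, Gm4850, Pramel18, Calb2, Crispld2, Syce1 and Pdlim3, and 11 entries lost it in every one of those fits, at limma adjusted p up to 0.199.

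**Figure D1:**
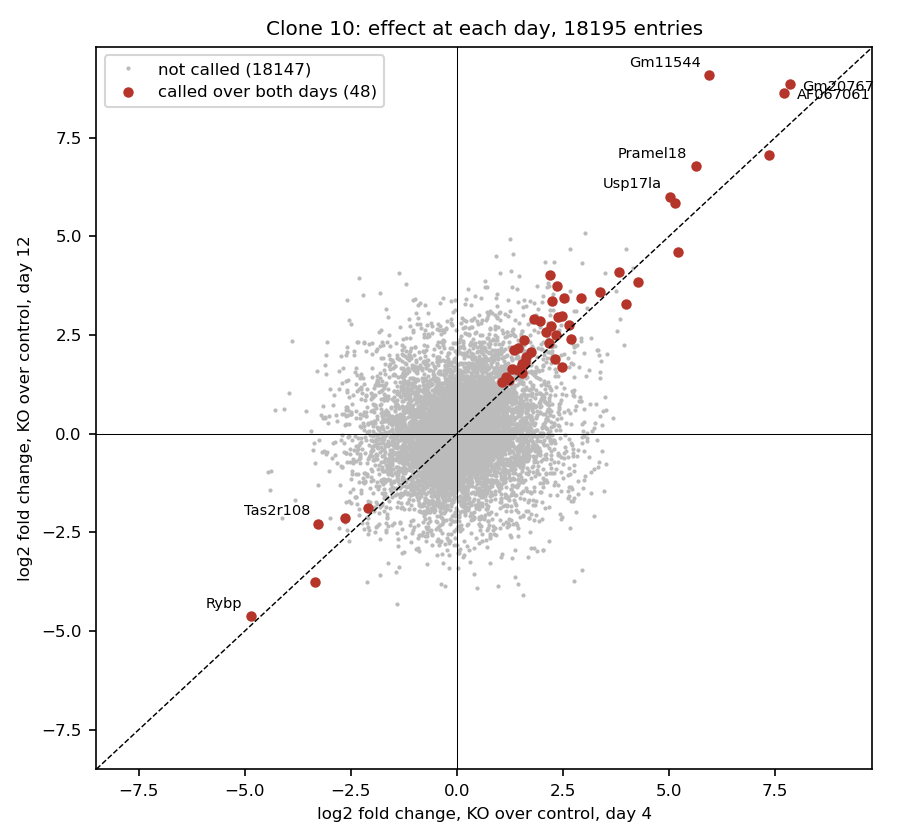
KO over control in clone 10 at day 12 (vertical axis) against day 4 (horizontal axis), as log2 fold changes of 18195 entries. Grey points were not called and the 48 red points passed the test over both days. Of the red points 43 lie in the upper right and 5 in the lower left. Of the 43, 36 lie above the dashed line of equal effect, on the side of day 12. The share of all entries above this line was not counted.

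The 8 largest increases on the log2 scale were all in members of the list of 2-cell stage and preimplantation genes. Of 31 measured genes on this list, 10 rose, 0 fell and 21 did not pass, with a median log2 fold change of 1.43 against 0.01 over all entries. In 18 of the 31 the KO arrays lay above the control arrays at each day, and in 0 below. These shares were 58.1% and 0%, against 6.57% and 3.77% of all entries. Several of these genes were put on the list with their values in this series known. Neither the count nor the list's place among the largest increases is therefore independent evidence. The other lists were also chosen with earlier results of these data known, so their counts and shares below are descriptions too. AF067061 had intensities of 4328 and 1551 at day 4 and 6597 and 7691 at day 12 in KO cells, against 13.5 and 11.1 at day 4 and 9.44 and 33.8 at day 12 in control cells. This came to 8.18 ± 0.51 (limma adjusted p = 0.00322) on the log2 scale. Its KO arrays spread about 5-fold and still lay far above every control array, with a floored fold of 145. By its suffix (x_at), its probe set may also detect other transcripts. Whether more cells carried these transcripts or each cell carried more cannot be told apart in bulk RNA.

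Gm20767 read 1075 and 704 at day 4 and 2001 and 2280.1 at day 12 in KO cells, against 2.88 and 4.95 at day 4 and 6.48 and 3.29 at day 12 in control cells. In log2 units the difference was 8.35 ± 0.35 (floored fold 48.2, limma adjusted p = 0.0013). All its control arrays were at background. Usp17la, a deubiquitinating enzyme gene, read 2819.9 and 1285 at day 4 and 3887 and 4604 at day 12 in KO cells, against 55.9 and 60.4 at day 4 and 52.4 and 82.8 at day 12 in control cells. The log2 fold change was 5.52 ± 0.34 (floored fold 45.9, limma adjusted p = 0.00322). It was above background in control cells and still separated by more than 10-fold on every array. Ubtfl1, which encodes an HMG-box protein active before implantation, read 427 and 329 at day 4 and 782 and 619 at day 12 in KO cells, against 22.1 and 4.58 at day 4 and 35.1 and 23.4 at day 12 in control cells. On the log2 scale KO over control was 4.91 ± 0.49 (floored fold 17.1, limma adjusted p = 0.0204). Zfp352, a zinc finger gene of the 2-cell embryo, read 372 and 323 at day 4 and 613 and 786 at day 12 in KO cells, against 59.8 and 88.3 at day 4 and 61.1 and 74.0 at day 12 in control cells. This came to 2.81 ± 0.28 (limma adjusted p = 0.0204) on the log2 scale. A second Zfp352 probe set gave 5.16. The groups did not overlap for either gene.

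The remaining risers of this list were the predicted genes BC080696, Gm11544 and Gm4850, the Prame-like gene Pramel18 and Arg2, which encodes the mitochondrial arginase. BC080696 ranged over 937 to 1874 in KO cells and 3.66 to 28.6 in control cells, a floored fold of 45.3. Gm11544 ranged over 598 to 2034 in KO cells and 3.18 to 15.6 in control cells (floored fold 41.9), and Gm4850 over 292 to 685 in KO cells and 7.67 to 12.4 in control cells (floored fold 14.9). Pramel18, the 1 riser among 9 measured Prame-like genes, read 254 and 225 at day 4 and 723 and 502 at day 12 in KO cells, against 4.91 and 4.76 at day 4 and 7.93 and 3.81 at day 12 in control cells. In log2 units the difference was 6.20 ± 0.34 (floored fold 13.4). Arg2 read 173 and 153 at day 4 and 348 and 439.7 at day 12 in KO cells, against 32.2 and 39.3 at day 4 and 25.7 and 22.6 at day 12 in control cells (log2 fold change 3.11 ± 0.38, limma adjusted p = 0.0443), lost its call in each of the 8 fits without 1 array, and gave 4.22 from another probe set. Limma adjusted p for the other 4 genes lay between 0.00138 and 0.0122. Members of the list that did not pass included Sp110, with 218 and 159.9 at day 4 and 402 and 477 at day 12 in KO cells, against 67.1 and 62.0 at day 4 and 87.2 and 59.8 at day 12 in control cells (log2 fold change 2.07 ± 0.28, limma adjusted p = 0.0609), and Tcstv1, with 58.3 to 153 in KO cells and 1.52 to 24.1 in control cells (3.68 ± 0.78, limma adjusted p = 0.211). Dimmer probe sets of Sp110 gave 0.26 and -1.48. Duxf3, an entry for the Dux factor that activates 2-cell genes, read 70.3 to 169.6 in KO cells and 15.4 to 53.5 in control cells (1.43 ± 0.39, limma adjusted p = 0.308).

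Some of the best known 2-cell genes lie on probe sets with several symbols, which were tested in a separate fit over all 45037 probe sets, where 38 (0.0844%) were higher and 4 (0.00888%) lower. Such a probe set cannot say which of its genes changed. Probe set 1457033_at, which carries Zscan4a, Zscan4c, Zscan4d and Zscan4f, read 5621 and 4587 at day 4 and 9948 and 11399.5 at day 12 in KO cells, against 62.4 and 48.2 at day 4 and 74.7 and 125 at day 12 in control cells. The log2 fold change was 6.66 ± 0.23 (limma adjusted p = 0.000416 over all probe sets). Zscan4 proteins mark the 2-cell-like state and are tied to telomere maintenance. Probe set 1443961_at, for Gm4340 and 6 further predicted genes, read 13032 and 11428 at day 4 and 24556 and 20665 at day 12 in KO cells, against 83.9 and 116 at day 4 and 151 and 119 at day 12 in control cells. On the log2 scale KO over control was 7.17 ± 0.21 (limma adjusted p = 0.000393). On the KO arrays it was among the bright signals of the table, against control values within 2-fold of the median. Probe set 1427479_at, for Gm4027, BB287469 and Eif1a, read 4318 to 8601 in KO cells and 36.2 to 92.5 in control cells (log2 fold change 6.84 ± 0.22), and 1444529_at, for Gm2022, Gm8300 and Gm5662, read 709 to 1025 in KO cells and 1.48 to 5.86 in control cells (8.22 ± 0.47). The predicted-gene sets 1442334_at, 1459089_at and 1447377_at rose by 6.92, 6.62 and 3.45 on the log2 scale. Probe sets for Pramel42 and its relatives (3.90) and for Luzp4, Ott and their relatives (2.20, limma adjusted p = 0.0474) rose as well, and the other sets of this kind had smaller p. In all, 9 probe sets with several symbols rose and Rybp alone of that kind fell. The pair of probe sets for Usp17ld and Usp17lc, relatives of Usp17la, had log2 fold changes of 3.94 ± 0.93 and 4.06 ± 0.92 without passing (limma adjusted p = 0.377 and 0.358).

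**Figure D2:**
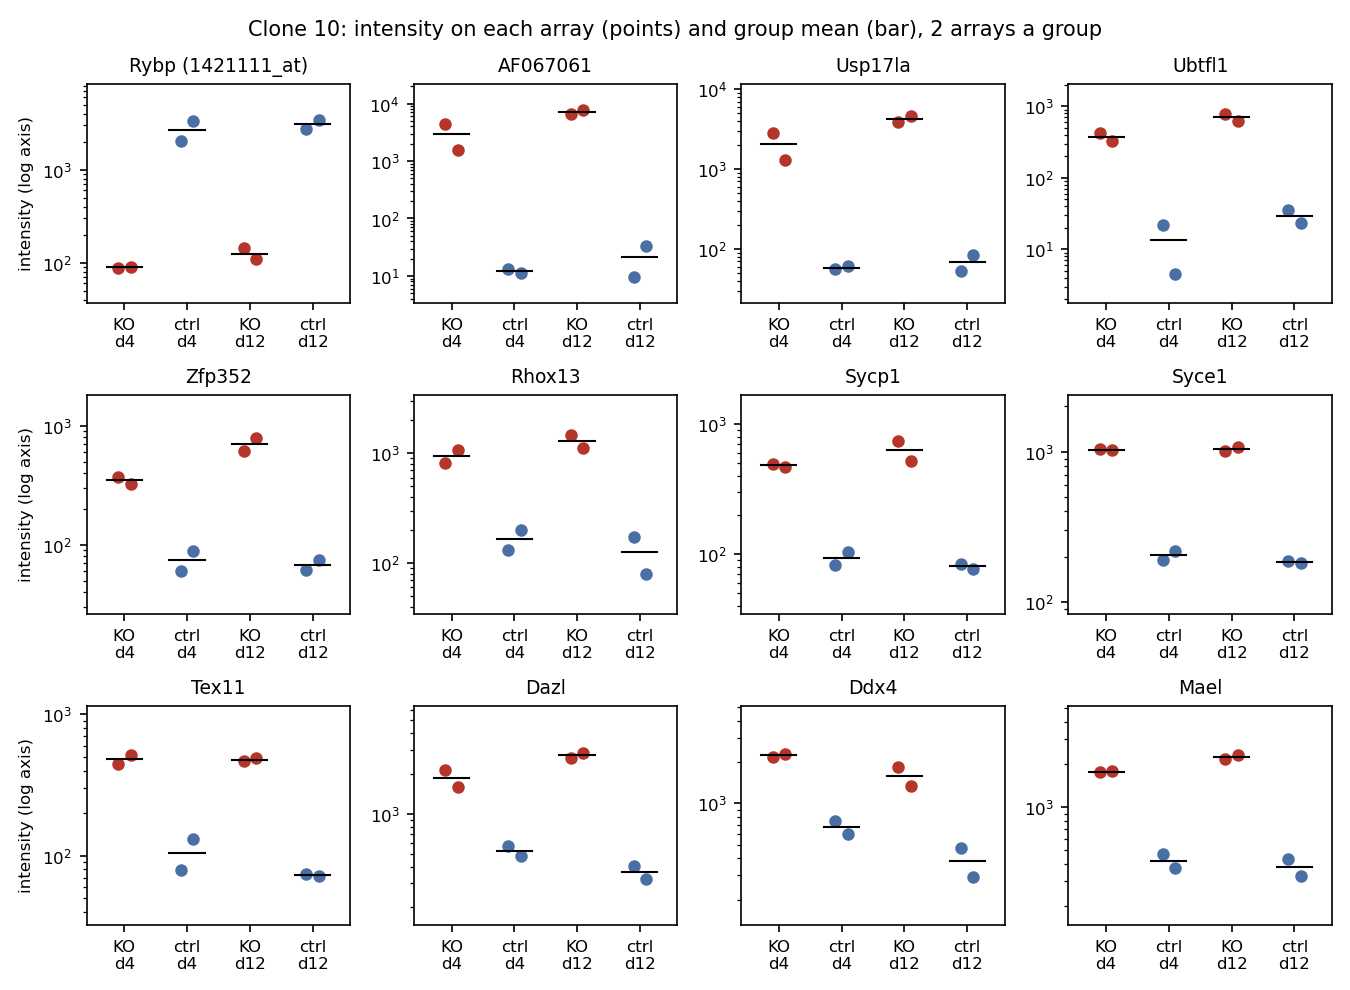
Intensity on each clone 10 array (points, logarithmic axis) for 12 genes, with the mean of the 2 arrays of a group as a bar. KO arrays are red, control arrays blue, with day 4 at left and day 12 at right in each panel. Rybp is lower and the other 11 genes are higher on every KO array.

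Syce1, Sycp1 and Tex11, genes of chromosome pairing and recombination in meiosis, rose together. Of 36 measured meiosis and synaptonemal complex genes, 3 rose, 0 fell and 33 did not pass. The median log2 fold change was 0.25, and the KO arrays lay above the control arrays at each day in 13 of the 36 and below in 0. These shares were 36.1% and 0%, against 6.57% and 3.77% of all entries. Syce1, a central element protein of the synaptonemal complex that holds paired chromosomes together, read 1034 and 1023 at day 4 and 1011 and 1082 at day 12 in KO cells, against 191 and 219 at day 4 and 186 and 181 at day 12 in control cells. This came to 2.42 ± 0.12 (limma adjusted p = 0.00184) on the log2 scale. Its 4 KO arrays lay within 8% of each other, the tightest of the germline genes described here. Sycp1, the transverse filament protein of the same structure, read 496 and 464 at day 4 and 741 and 519.9 at day 12 in KO cells, against 82.1 and 104 at day 4 and 83.9 and 77.3 at day 12 in control cells. In log2 units the difference was 2.66 ± 0.20 (limma adjusted p = 0.0076). Tex11, an X-linked gene needed for meiotic recombination, read 446 and 514 at day 4 and 469.5 and 488 at day 12 in KO cells, against 79.9 and 130.4 at day 4 and 73.8 and 71.5 at day 12 in control cells. The log2 fold change was 2.48 ± 0.20 (limma adjusted p = 0.0094). For all 3 genes the lowest KO array was more than 3-fold above the highest control array.

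Among the members that did not pass, Stra8, the retinoic acid-induced switch into meiosis, had intensities of 289.8 and 401 at day 4 and 959 and 1196 at day 12 in KO cells, against 156 and 185 at day 4 and 119 and 138 at day 12 in control cells. On the log2 scale KO over control was 2.03 ± 0.43 (limma adjusted p = 0.213). Sycp2, a lateral element protein, read 179 and 120.1 at day 4 and 172 and 104 at day 12 in KO cells, against 64.6 and 63.8 at day 4 and 38.9 and 14.8 at day 12 in control cells (1.83 ± 0.43, limma adjusted p = 0.241). Neither had any overlap between the groups at either day. The same held for Hormad2 (2.34 ± 0.47), Ccnb1ip1 (1.88 ± 0.32), Tex15 (1.22 ± 0.26) and Tex12 (2.72 ± 0.74), with limma adjusted p between 0.125 and 0.306.

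Among germ cell RNA regulators Dazl, Mael and Ddx4 rose, each to above 1000 on every KO array. Of 29 measured genes of germ cell RNA control and the piRNA pathway, which silences transposons in the germline, 3 rose, 0 fell and 26 did not pass. Their median log2 fold change was 1.01. KO arrays lay above control arrays at each day for 13 of the 29 and below for 2, Piwil1 and Lin28b. The shares were 44.8% and 6.9%, against 6.57% and 3.77% of all entries. Dazl, an RNA-binding protein needed for germ cell development, read 2137 and 1583 at day 4 and 2624 and 2854 at day 12 in KO cells, against 571 and 481 at day 4 and 408 and 326 at day 12 in control cells (log2 fold change 2.36 ± 0.27, limma adjusted p = 0.0319), and a second probe set gave 2.34. Mael, a piRNA pathway protein, read 1763 and 1797 at day 4 and 2188 and 2319.7 at day 12 in KO cells, against 468 and 371 at day 4 and 431 and 327 at day 12 in control cells. This came to 2.34 ± 0.18 (limma adjusted p = 0.00771) on the log2 scale. Ddx4, the germ cell RNA helicase also called Vasa, read 2180.1 and 2282 at day 4 and 1827 and 1331 at day 12 in KO cells, against 748 and 596 at day 4 and 472 and 289.96 at day 12 in control cells (log2 fold change 1.91 ± 0.22, limma adjusted p = 0.0319), and lost its call in each of the 8 fits without 1 array. All 3 were well above background in control cells, and no KO array overlapped a control array.

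Several piRNA genes came near the threshold without passing. Piwil2, an Argonaute protein of the pathway, read 1296 and 890.3 at day 4 and 1127 and 1327 at day 12 in KO cells, against 542 and 398 at day 4 and 363 and 346 at day 12 in control cells. In log2 units the difference was 1.50 ± 0.21 (limma adjusted p = 0.0738). Tdrkh, a Tudor protein of the same pathway, read 327 to 558 in KO cells and 123 to 187 in control cells (1.52 ± 0.23, limma adjusted p = 0.0839). Stk31 (1.91 ± 0.34), Mov10l1 (2.04 ± 0.39), Asz1 (1.88 ± 0.36) and Piwil4 (1.11 ± 0.19) had limma adjusted p between 0.127 and 0.177. Each of these 6 genes had all KO arrays above all control arrays of the same day.

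Slc25a31 and Pdha2 among testis-expressed genes, and the Rhox cluster, gave the remaining increases that fell on a list. Of 34 measured testis-expressed genes and spermatogenic paralogues, 3 rose and 0 fell, with a median log2 fold change of 0.34. The list's other riser had been counted with a list above. KO arrays lay above control arrays at each day in 9 of the 34 and below in 1. The shares were 26.5% and 2.94%, against 6.57% and 3.77% of all entries. Slc25a31, the testis form of the mitochondrial ADP/ATP carrier, read 523 and 804 at day 4 and 623 and 533 at day 12 in KO cells, against 89.2 and 179.7 at day 4 and 40.9 and 45.8 at day 12 in control cells. The log2 fold change was 3.05 ± 0.37 (limma adjusted p = 0.0433). Pdha2, the testis form of a pyruvate dehydrogenase subunit, read 43.3 and 59.7 at day 4 and 119 and 80.4 at day 12 in KO cells, against 2.58 and 4.97 at day 4 and 7.83 and 4.22 at day 12 in control cells. On the log2 scale KO over control was 3.96 ± 0.31 (floored fold 2.49, limma adjusted p = 0.00771). It stayed low even in KO cells, under the median intensity of the table on 3 of 4 arrays. Tex13b, an X-linked testis gene, did not pass, with 708 and 619 at day 4 and 771 and 868 at day 12 in KO cells, against 232 and 139 at day 4 and 61.5 and 61.4 at day 12 in control cells (2.81 ± 0.41, limma adjusted p = 0.0738).

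Rhox genes are an X-linked cluster of homeobox genes expressed in germ cells and placenta. Of the 4 measured, 2 rose, and for all 4 the KO arrays lay above the control arrays at each day (6.57% of all entries did). Rhox13 read 818 and 1069.8 at day 4 and 1451 and 1125 at day 12 in KO cells, against 132 and 198 at day 4 and 172 and 79.3 at day 12 in control cells. This came to 2.99 ± 0.34 (limma adjusted p = 0.0319) on the log2 scale. Rhox6 read 1293 and 1123 at day 4 and 2352 and 2366 at day 12 in KO cells, against 384 and 388 at day 4 and 673 and 561 at day 12 in control cells (1.79 ± 0.14, limma adjusted p = 0.00771), and was also the 1 riser of 30 trophectoderm genes. Rhox5 was among the brighter genes, with 10734 and 10619 at day 4 and 23776 and 21869.6 at day 12 in KO cells, against 6748 and 7116 at day 4 and 11198 and 10175 at day 12 in control cells, and did not pass (0.86 ± 0.15, limma adjusted p = 0.125). Nor did Rhox9 (1.17 ± 0.18, limma adjusted p = 0.0897). The 3 genes Rhox5, Rhox6 and Rhox9 read higher at day 12 than at day 4 in KO and in control cells alike.

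**Figure D3:**
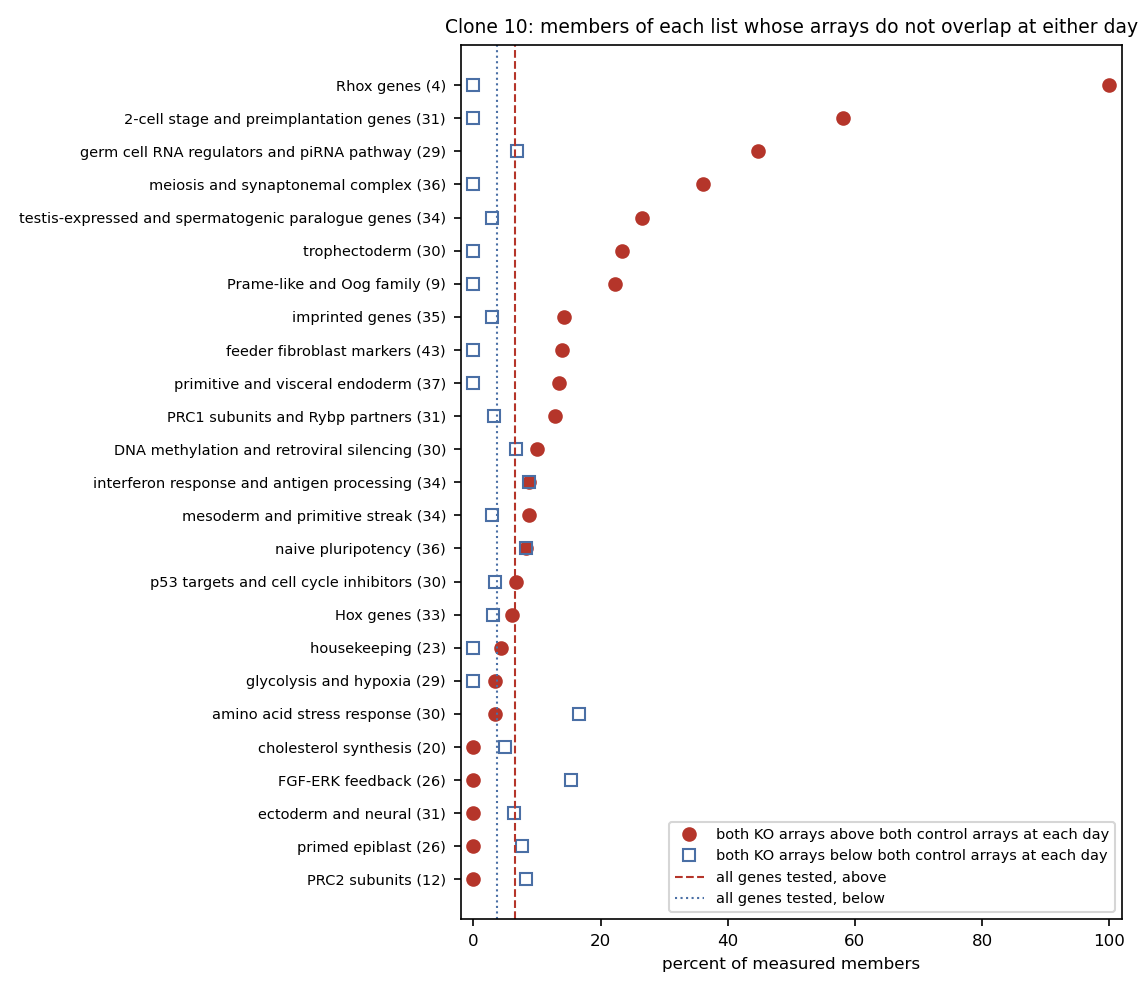
Share of the measured members of each of 25 gene lists (number measured in brackets) whose arrays did not overlap at either day in clone 10. Red circles give members with both KO arrays above both control arrays, blue squares those with both below, and the vertical lines mark the shares over all entries, 6.57% and 3.77%. The Rhox, 2-cell, germ cell RNA, meiosis and testis lists have the highest red shares. The lists were chosen with earlier results of these data known, so this order is not independent evidence.

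Since E2f6, Mga and Max are known to bind promoters of germline genes, promoter sequences were searched on both strands for CACGTG, the E-box that Mga and Max bind, and for TCCCGC, the core of E2F sites. The windows run from 250 bases before to 50 after each gene's start, in RefSeq on GRCm38.p6, and 33 windows were found for 31 of the 43 genes. CACGTG stood in 6 of the 33 (18.2%), against 7.15% of 32851 promoters, and TCCCGC in 10 (30.3%), against 20.0%. Both motifs stood in 4 (12.1%), against 1.99%. A match is a string of letters and not a binding site, the 2 sets differ in CpG content (a median of 9 CpG in the risers, 7 in all), and no test was made. The 4 promoters with both motifs belong to germline genes described above and are shown first, 5′ to 3′ on the gene's strand, with each match in capitals (GCGGGA is TCCCGC on the opposite strand). Usp17la and AF067061 follow as 2-cell genes with a large increase and neither motif in the window.
Mael, chr1:166238695-166238994, minus strand: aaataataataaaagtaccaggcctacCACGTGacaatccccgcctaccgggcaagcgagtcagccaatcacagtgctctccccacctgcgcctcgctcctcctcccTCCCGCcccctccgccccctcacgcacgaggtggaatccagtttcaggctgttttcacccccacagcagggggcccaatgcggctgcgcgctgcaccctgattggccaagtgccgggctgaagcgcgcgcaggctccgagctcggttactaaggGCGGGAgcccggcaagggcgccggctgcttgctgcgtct
Ddx4, chr13:112652261-112652560, minus strand: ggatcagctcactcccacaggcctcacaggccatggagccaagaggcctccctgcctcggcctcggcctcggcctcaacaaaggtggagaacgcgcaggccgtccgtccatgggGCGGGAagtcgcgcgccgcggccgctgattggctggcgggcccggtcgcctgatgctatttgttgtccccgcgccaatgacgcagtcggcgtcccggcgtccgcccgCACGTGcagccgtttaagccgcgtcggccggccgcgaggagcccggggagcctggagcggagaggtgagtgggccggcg
Sycp1, chr3:102936051-102936350, minus strand: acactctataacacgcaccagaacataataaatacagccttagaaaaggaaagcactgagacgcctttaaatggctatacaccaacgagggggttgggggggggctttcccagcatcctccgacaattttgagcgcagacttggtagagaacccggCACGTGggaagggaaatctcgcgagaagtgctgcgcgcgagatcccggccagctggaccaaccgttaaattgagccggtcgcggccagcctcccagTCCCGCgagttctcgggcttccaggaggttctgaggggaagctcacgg
Slc25a31, chr3:40708621-40708920, plus strand: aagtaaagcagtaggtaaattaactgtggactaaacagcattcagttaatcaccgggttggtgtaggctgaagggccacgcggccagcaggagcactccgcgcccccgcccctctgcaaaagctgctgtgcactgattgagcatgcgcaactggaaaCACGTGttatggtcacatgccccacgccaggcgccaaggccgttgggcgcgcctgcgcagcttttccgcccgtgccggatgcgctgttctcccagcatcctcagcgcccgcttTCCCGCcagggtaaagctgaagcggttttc
Usp17la, chr7:104856766-104857065, plus strand: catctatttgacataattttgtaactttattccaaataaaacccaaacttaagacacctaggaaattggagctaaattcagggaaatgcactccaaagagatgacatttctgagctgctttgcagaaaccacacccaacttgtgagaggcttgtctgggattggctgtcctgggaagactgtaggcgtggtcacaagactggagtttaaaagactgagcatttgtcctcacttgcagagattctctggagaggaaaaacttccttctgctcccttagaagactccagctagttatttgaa
AF067061, chr13:120262845-120263144, plus strand: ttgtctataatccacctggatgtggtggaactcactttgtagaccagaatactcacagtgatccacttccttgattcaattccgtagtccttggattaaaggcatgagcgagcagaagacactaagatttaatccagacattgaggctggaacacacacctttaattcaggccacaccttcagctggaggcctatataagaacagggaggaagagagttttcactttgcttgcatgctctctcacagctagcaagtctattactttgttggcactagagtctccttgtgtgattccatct

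Both motifs contain a CpG, so windows that hold them tend to be richer in CpG. Neither motif stood in the windows of the 2-cell genes Ubtfl1 (0 CpG) and Zfp352 (2). The same held for the germline genes Pdha2 (4), Rhox13 (5), H1f7 (6), Syce1 (14), Sohlh2 (17) and Dazl (28).

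The other 23 increases were on no list and are named because they passed. Some are germline genes by their known roles. Sohlh2, a germ cell transcription factor, read 1244 and 916 at day 4 and 1408 and 1814 at day 12 in KO cells, against 375 and 339.7 at day 4 and 279.5 and 336 at day 12 in control cells (log2 fold change 1.98 ± 0.23). Catsperz, an auxiliary subunit of the sperm calcium channel, ranged over 387 to 553 in KO cells and 107 to 163 in control cells (1.72 ± 0.20). H1f7, a linker histone of sperm development, stayed near background at 34.8 to 60.3 in KO cells and 5.70 to 17.9 in control cells (2.10 ± 0.21, floored fold 1.58), and another probe set gave -0.39. The uncharacterised genes 3110040M04Rik (4.06 ± 0.31, floored fold 14.4) and Gm11545 (3.63 ± 0.40, floored fold 9.91) were among the larger increases, with 461 to 945 in KO cells and 15.6 to 74.2 in control cells for the first and 273 to 632 in KO cells and 11.5 to 81.1 in control cells for the second. Gm364 (1.53) and Gm36365 (2.08) rose by less. Limma adjusted p for these 7 genes lay between 0.00771 and 0.0433.

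The rest have roles in other tissues or in metabolism. Calb2, the calcium-binding protein calretinin of neurons, read 174 and 138 at day 4 and 313 and 339 at day 12 in KO cells, against 19.201 and 21.7 at day 4 and 27.4 and 33.1 at day 12 in control cells. In log2 units the difference was 3.18 ± 0.17 (limma adjusted p = 0.00201). Crispld2, a secreted protein, read 193 and 136 at day 4 and 191 and 258 at day 12 in KO cells, against 13.8 and 17.4 at day 4 and 14.7 and 22.9 at day 12 in control cells (3.49 ± 0.22, limma adjusted p = 0.0034), and 2 other probe sets gave 1.88 and 2.06. Pdlim3, a muscle scaffold protein, read 356 and 453 at day 4 and 775 and 704 at day 12 in KO cells, against 93.8 and 83.2 at day 4 and 159 and 143 at day 12 in control cells (2.24 ± 0.14, limma adjusted p = 0.00322). These 3 kept their call without any 1 of the 8 arrays.

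Genes of lipid and small-molecule handling included Fabp5, a fatty acid-binding protein, which read 7945 and 8163 at day 4 and 7698 and 7993 at day 12 in KO cells, against 3776 and 3869.9 at day 4 and 3256 and 3084 at day 12 in control cells and had the smallest of the 43 increases (1.19 ± 0.12). A second probe set of Fabp5 gave 1.31. Crabp1, a retinoic acid-binding protein, ranged over 1308 to 1709 in KO cells and 388 to 511 in control cells (1.71 ± 0.15), and Scd3, a fatty acid desaturase, over 529 to 982 in KO cells and 185 to 240.5 in control cells (1.81 ± 0.21). Gstm5, a glutathione transferase (1.47 ± 0.15), Ptgds, a prostaglandin D synthase (1.61 ± 0.19), Pygl, the liver glycogen phosphorylase (1.54 ± 0.15), and Hal, a histidine-degrading enzyme (1.30 ± 0.14), rose too. Dimmer probe sets gave 0.91 for Ptgds and 1.21 for Scd3. The membrane and synapse genes were Rapsn (2.70 ± 0.27), Rhbg, an ammonium transporter (2.41 ± 0.23), Neto2 (1.65 ± 0.19) and Tmem132c (2.74 ± 0.22, and 1.97 from a dimmer probe set). Zcchc12 rose by 1.29 ± 0.15. Cxcl15, a chemokine known from the lung, read 50.4 and 55.7 at day 4 and 55.9 and 46.9 at day 12 in KO cells, against 9.19 and 7.40 at day 4 and 6.53 and 14.5 at day 12 in control cells (2.54 ± 0.27, floored fold 1.84), and its other probe set gave 0.55. Limma adjusted p over the genes of this paragraph lay between 0.00771 and 0.0402.

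**Figure D4:**
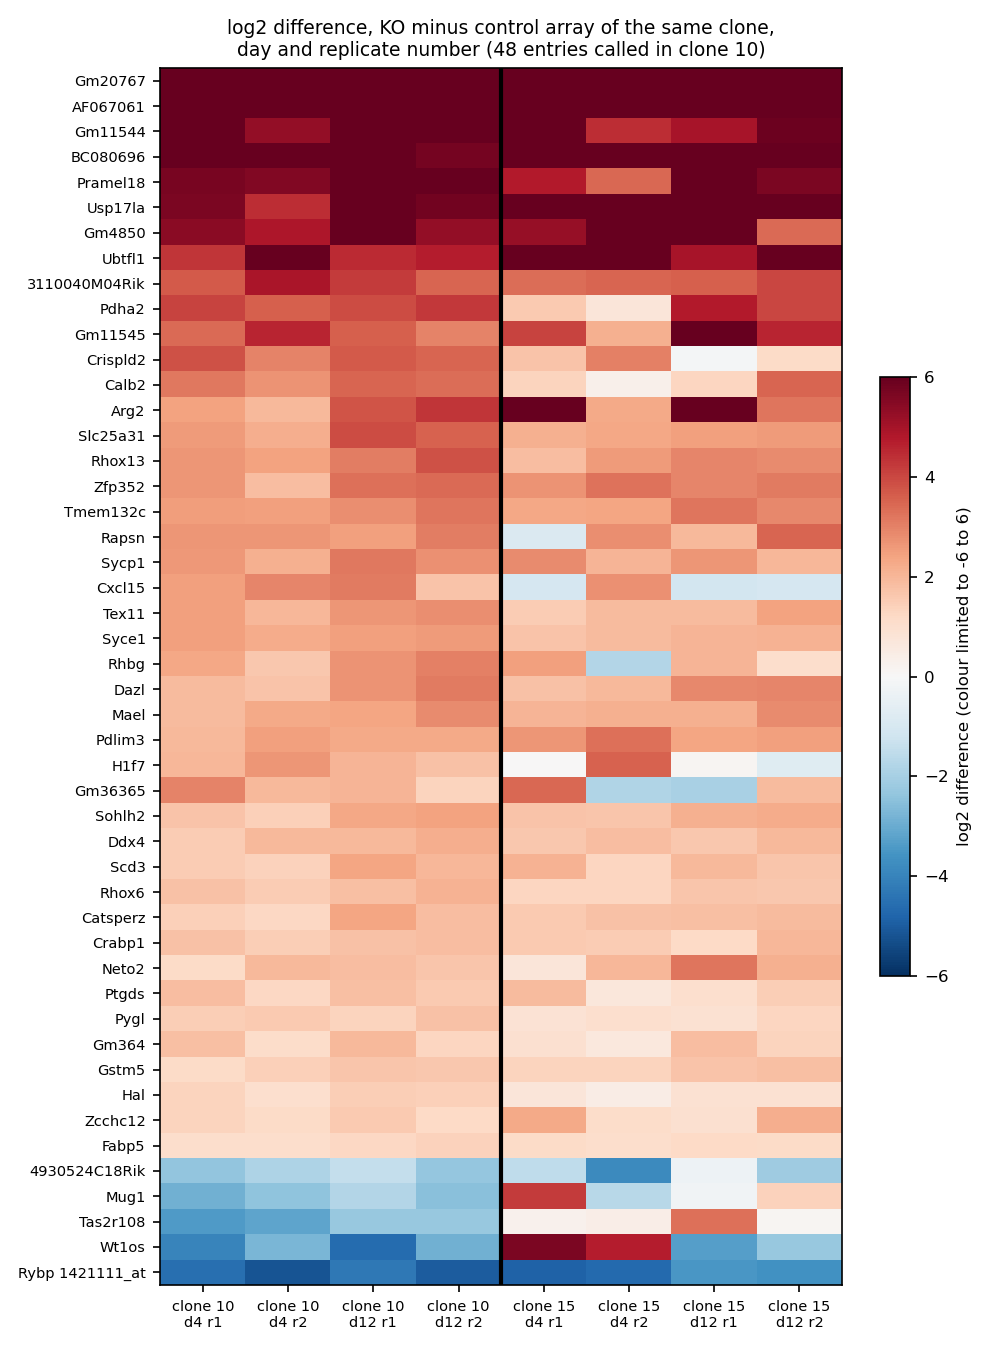
Log2 difference between the KO and the control array of the same clone, day and replicate number (which was not taken to pair them) for the 48 entries called in clone 10, with clone 10 in the left 4 columns and clone 15 in the right 4. Red is higher and blue lower in KO, with the colour limited at 6 in either direction. In clone 10 every row has 1 colour, whereas in clone 15 the rows of Tas2r108, Wt1os, Mug1, Crispld2, Cxcl15, Gm36365, H1f7, Rapsn and Rhbg hold at least 1 cell of the opposite sign.

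Beyond Rybp, the 4 decreases were all in dim genes, under the median intensity (93.3) on every array of clone 10. Tas2r108, a bitter taste receptor, read 7.57 and 7.44 at day 4 and 13.0 and 9.89 at day 12 in KO cells, against 79.2 and 65.7 at day 4 and 63.1 and 48.2 at day 12 in control cells (log2 fold change -2.77 ± 0.25, limma adjusted p = 0.0146), a floored fold of 2.23. Its control arrays lay above the 25th percentile (28.3) and below the median intensity, and it also passed with the floor. Wt1os, an antisense transcript of Wt1, ranged over 0.728 to 2.19 in KO cells and 6.68 to 34.1 in control cells (-3.55 ± 0.33), Mug1, a protease inhibitor of the murinoglobulin family, over 2.81 to 5.32 in KO cells and 14.5 to 27.9 in control cells (-2.39 ± 0.27) and 4930524C18Rik over 2.54 to 11.1 in KO cells and 13.0 to 40.4 in control cells (-1.99 ± 0.21). With the floor Wt1os came to 1.05-fold and 4930524C18Rik to 1.11-fold, and no value of Mug1 reached the floor. Limma adjusted p was 0.0155 for Wt1os, 0.0319 for Mug1 and 0.0289 for 4930524C18Rik, and with the floor none of the 3 passed. The spread between arrays of a group was large at such levels, with a median SD of 1.14 on the log2 scale for genes whose mean log2 intensity was under 5, against 0.186 for genes over 11.

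Lists of ES cell and Polycomb genes had 0 calls. With 0.236% of all entries higher and 0.0275% lower, a count of 0 in a list of this size is near the background, here and for the lists that follow. Over all entries, 6.57% lay above and 3.77% below at each day, against 8.33% each way in the naive pluripotency list. In the naive pluripotency list 0 of 36 measured genes passed in either direction, 3 lay above and 3 below at each day, and the median log2 fold change was -0.06. Fbxo15 read 10457 and 9829 at day 4 and 14481 and 14045 at day 12 in KO cells, against 6613 and 7863 at day 4 and 6621 and 6343 at day 12 in control cells (0.81 ± 0.18, limma adjusted p = 0.213). Myb, a transcription factor gene of that list, read 1197 and 633 at day 4 and 532 and 388 at day 12 in KO cells, against 2443 and 1252 at day 4 and 1823 and 1597 at day 12 in control cells (-1.46 ± 0.34, limma adjusted p = 0.244), lower on every KO array than on the control arrays of its day. Of 31 PRC1 subunits and Rybp partners 0 passed (median -0.02). The canonical subunit gene Phc2 read 598 and 703 at day 4 and 1021 and 849.8 at day 12 in KO cells, against 384 and 345 at day 4 and 622 and 364 at day 12 in control cells (0.90 ± 0.20, limma adjusted p = 0.221), and E2f6 read 803 to 1135 in KO cells and 597 to 765 in control cells (0.55 ± 0.17, limma adjusted p = 0.351). Of 12 PRC2 subunits 0 passed (median -0.0043), with Ezh1 at -0.52 ± 0.18 and Mtf2 at 0.41 ± 0.17.

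Differentiation lists gave no calls apart from Rhox6. None of 26 primed epiblast genes passed (median -0.21), and Otx2, a homeobox gene of that state, read 818 and 2023 at day 4 and 614 and 546 at day 12 in KO cells, against 1995 and 2621 at day 4 and 1817 and 2333 at day 12 in control cells (-1.33 ± 0.35, limma adjusted p = 0.301), with the groups overlapping at day 4. Among 37 endoderm genes (median 0.22), P4ha2, a collagen-modifying enzyme, came nearest with 779 and 885 at day 4 and 2134 and 1731 at day 12 in KO cells, against 399 and 386 at day 4 and 801 and 996 at day 12 in control cells (1.09 ± 0.14, limma adjusted p = 0.0578). The trophectoderm list had a median of 0.23. Of its 30 genes, 7 lay above at each day (23.3%, against 6.57% of all entries). Among them were Krt7 (1.12 ± 0.30) and Gata3, which stayed near background (13.5 to 35.2 in KO cells and 1.90 to 13.4 in control cells). The mesoderm (34 genes, median 0.13), ectoderm and neural (31, 0.10) and Hox (33, 0.29) lists had 0 calls. The members with the largest floored differences in these lists were Mesp2 (0.96 ± 0.30), Msgn1 (-1.36 ± 0.45), Neurod1 (-1.13 ± 0.49), Gfap (-1.26 ± 0.34, against 1.43 and 0.29 from dimmer probe sets), Hoxc9 (1.02 ± 0.60) and Hoxd13 (0.85 ± 0.38).

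The 43 fibroblast genes had 0 calls, a median of 0.23 and 6 genes above at each day (14%, against 6.57% of all entries). Igfbp3, an insulin-like growth factor binding protein, read 1318 and 670.2 at day 4 and 1053 and 1438 at day 12 in KO cells, against 342 and 297 at day 4 and 360.004 and 361 at day 12 in control cells (1.67 ± 0.24, limma adjusted p = 0.0745), and a second probe set gave 1.23. Snai2 read 67.6 to 172 in KO cells and 36.5 to 52.1 in control cells (1.25 ± 0.31), and its other probe set gave 0.31. Imprinted genes (35 measured, median 0.00) had 0 calls, with Cdkn1c, an inhibitor of the cell cycle, at 755 and 846 at day 4 and 682 and 1149.7 at day 12 in KO cells, against 346 and 391.8 at day 4 and 209 and 369.6 at day 12 in control cells (1.40 ± 0.27, limma adjusted p = 0.177) and Dlk1 at 0.93 ± 0.24. In the p53 and cell cycle inhibitor list (30 genes, median -0.14) Zmat3 read -0.67 ± 0.23 on the log2 scale.

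Signalling and metabolic lists had 0 calls as well. The counts above and below given here stand beside 6.57% above and 3.77% below over all entries. The shares below were 15.4% for the FGF-ERK feedback list and 16.7% for the amino acid stress list. The FGF-ERK feedback list had a median of -0.25 over 26 genes, with 4 below and 0 above at each day. Cnpy1, which acts in FGF signalling in zebrafish, read 774 and 759.7 at day 4 and 437 and 333 at day 12 in KO cells, against 1526 and 1207 at day 4 and 940.3 and 752 at day 12 in control cells (-0.98 ± 0.17, limma adjusted p = 0.133). Further Cnpy1 probe sets gave -0.81 and -0.94. The other 3 below were Il17rd (-0.55 ± 0.12), Braf (-0.56 ± 0.12) and Myc (-0.85 ± 0.35). Amino acid stress genes (30, median -0.08) had 5 below and 1 above, among them, below, the transporter gene Slc6a15 with 303 and 294 at day 4 and 322 and 239 at day 12 in KO cells, against 539.99 and 524 at day 4 and 572 and 425 at day 12 in control cells (-0.83 ± 0.16, limma adjusted p = 0.177). The interferon and antigen list (34, median -0.02) had 3 above and 3 below, with Xaf1 at 1.19 ± 0.19 and, from a second probe set, at -0.18. DNA methylation and retroviral silencing factors (30, -0.14), cholesterol synthesis (20, -0.01), glycolysis and hypoxia (29, -0.03) and housekeeping genes (23, -0.0034) had medians near 0. Log2 fold changes of the members named from these lists were 0.63 for Cbx3, 0.62 for Mbd1, -0.42 for Srebf2, 0.22 for Cyp51, 0.52 for Car9, 0.26 for B2m and 0.40 for Gusb.

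The effect was also tested at each day alone, with 2 arrays a side. At day 4, 4 genes (0.022%) were higher and 1 entry (0.0055%), Rybp, was lower by limma, with 969 entries (5.33%) at an unadjusted p under 0.05. At day 12, 34 genes (0.187%) were higher and 3 entries (0.0165%), Rybp, Cd69 and Mrap2, were lower, with 1419 entries (7.8%) at an unadjusted p under 0.05. Without any 1 of the 8 arrays, 0 genes were higher at day 4 and at most 1 at day 12, and 0 were lower at either. Where the array left out is of the day tested, its arm keeps 1 array, which is assumed to vary like the other groups. The 4 genes of day 4, Gm20767, Gm11544, Gm4850 and Pramel18, were also called at day 12 and over both days. Of the 34 genes of day 12, 19 were among the 43, and 15 were not. Across all 18195 entries the effects of the 2 days, which share no array, had a Pearson correlation of 0.21, given as a description since genes are not independent.

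Most of the 43 increases read larger at day 12. The median log2 fold change was 2.31 at day 4 and 2.75 at day 12, and 36 of the 43 had the larger value at day 12. Over all entries the medians were 0.0124 and 0.0144, and the share with the larger value at day 12 was not counted. Among genes above the median intensity, the median SD of log2 values was 0.243 in KO and 0.238 in control arrays at day 4. At day 12 it was 0.166 and 0.156. No entry passed the test of the difference between days (limma, 0 higher and 0 lower, smallest adjusted p = 0.268, 672 entries, or 3.69%, at an unadjusted p under 0.05), so no gene was shown to respond more at one day. Gm11544 had log2 fold changes of 5.95 ± 0.35 at day 4 and 9.09 ± 0.35 at day 12, a difference of 3.14 ± 0.50 (limma adjusted p = 0.524). Arg2 gave 2.19 and 4.02 (difference 1.83 ± 0.33, limma adjusted p = 0.657), and Dazl 1.81 and 2.91 (1.10 ± 0.36, limma adjusted p = 1). Syce1 gave 2.33 and 2.51, and Pdlim3 2.18 and 2.29, close to equal at the 2 days.

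Clone 15, analysed the same way, gave 44 genes higher (0.242%) and 2 entries lower (0.011%), Rybp and Tmem100, with 8.79% of entries at an unadjusted p under 0.05. The arrays did not overlap at either day, KO above, for 5.62% of entries in clone 15 and, KO below, for 3.87%. Of the 43 genes higher in clone 10, 26 were also higher in clone 15, which is 60.5% of the first list and 59.1% of the second, and Rybp was the 1 entry lower in both. The next counts stand without a share over all entries, which was not counted, and are descriptions. Over all entries the median log2 fold change in clone 15 was 0.0155. For 37 of the 43, each of the 4 KO arrays of clone 15 was above the control array of the same day and replicate number. The fold change in clone 15 was positive for 42 of the 43. The exception was Cxcl15, which read 20.9 and 33.2 at day 4 and 27.8 and 24.1 at day 12 in KO cells, against 42.3 and 5.03 at day 4 and 59.3 and 47.8 at day 12 in control cells in clone 15 (log2 fold change -0.09 ± 0.73). The increases had a median of 2.48 in clone 10 and 1.95 in clone 15, but they were picked for their values in clone 10. No entry passed the test of the difference between clones (limma over all 16 arrays, 0 higher and 0 lower, 585 entries, or 3.22%, at an unadjusted p under 0.05).

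**Figure D5:**
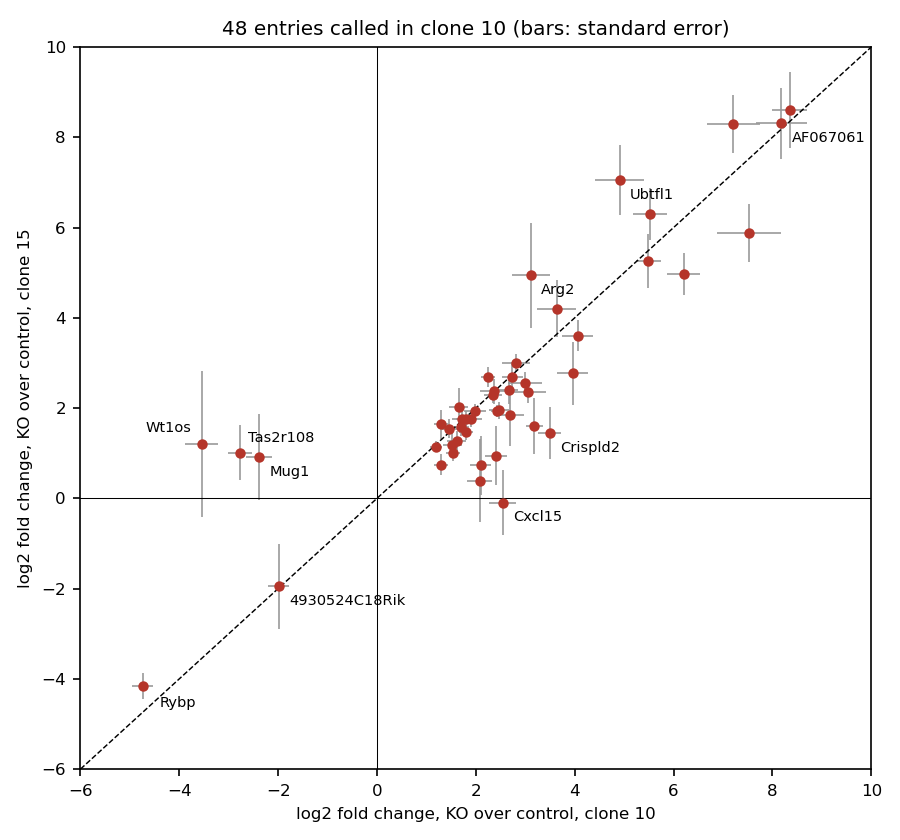
Log2 fold change, KO over control, of the 48 entries called in clone 10, in clone 15 (vertical axis) against clone 10 (horizontal axis), with standard errors as bars. The dashed line marks equal effects. Of the 43 increases 42 lie above 0 in clone 15, whereas 3 of the 5 decreases, Wt1os, Tas2r108 and Mug1, lie above 0 there. The share of all entries above 0 in clone 15 was not counted.

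The smallest adjusted p for a difference between clones was that of Rybp probe set 1428219_at. In clone 10 it read as given above, whereas in clone 15 it read 4374 and 7579.9 at day 4 and 4606 and 5148 at day 12 in KO cells, against 297 and 255 at day 4 and 157 and 170.4 at day 12 in control cells. The KO arrays of both clones were alike, and the control arrays were lower in clone 15, so that its log2 fold change was 1.13 ± 0.26 in clone 10 and 4.64 ± 0.22 in clone 15, a difference of -3.51 ± 0.36 (limma adjusted p = 0.0503). It passed with low values raised to the floor (limma adjusted p = 0.0291), with an offset of 32 (0.0114), with an intensity trend (0.00107) and among genes above the median (0.00602). Syce1, with the tightest arrays, gave 2.42 ± 0.12 in clone 10 and 1.93 ± 0.14 in clone 15, where it read 940.2 to 1059.8 in KO cells and 225 to 299 in control cells (difference 0.49 ± 0.16, limma adjusted p = 1). Calb2 read 179 and 227 at day 4 and 327 and 315 at day 12 in KO cells, against 71.7 and 186 at day 4 and 135 and 27.5 at day 12 in control cells in clone 15, with control arrays that were higher and more spread than in clone 10. Its log2 fold change was 3.18 ± 0.17 in clone 10 and 1.60 ± 0.62 in clone 15. Crispld2 gave 3.49 ± 0.22 in clone 10 and 1.44 ± 0.57 in clone 15 (difference 2.05 ± 0.57, limma adjusted p = 1). The 3 decreases with the opposite sign in clone 15 gave 1.19 for Wt1os, 1.01 for Tas2r108 and 0.91 for Mug1. Wt1os and Mug1 were near background there too. Tas2r108 read 64.0 and 80.2 at day 4 and 75.7 and 53.8 at day 12 in KO cells of clone 15. Its control arrays there read 54.3 and 61.4 at day 4 and 7.66 and 49.4 at day 12, so 1 low array weighs on its fold change. Tas2r108 passed the test of the difference between clones only without clone 15 control day 12 replicate 1 (-3.11, limma adjusted p = 0.0283) or replicate 2 (-4.46, 0.00145).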

How the data were processed

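Per the labels' protocols, Trizol was used for RNA and the cRNA was labelled with biotin. The authors' deposited values are intensities on a linear scale, and per the submitters' processing notes the tools were Affymetrix Expression Console and RMA (settings not given in the sources used here). An identical set of values, from 0.144 to 52570, stands on each of the 16 arrays, so they had been quantile-normalized together. A fit had been planned for log2 values, and log2 of the deposited intensities was taken, without an offset. Precision is limited by the number of arrays.

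Of 45101 probe sets, 64 controls were left out and 34945 had a single symbol in the platform annotation (34741 matched by Entrez identifier). The probe set of highest mean stood for each of 18193 genes. Limma 3.58.1 (R 4.3.3) was fitted with day as a term to the 8 arrays of clone 10 (4 group means for single days, 8 for clones), with two-sided moderated tests and Benjamini-Hochberg adjustment. Errors on log2 fold changes are standard errors, with 4 arrays a side over both days and 2 at each day. The method was tested on simulated data. Named genes were Rybp, the 15 largest floored increases and decreases among calls, up to 4 called or 2 other members of each list, and the 3 smallest p of each difference. Other genes were named after their values were seen. The members, lists and tests were chosen with earlier results of these data known. The alternatives were a replicate block, a floor, an offset of 32, an intensity trend, a filter at the median, every probe set, all 16 arrays and leaving out each array.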

Additional observations from a re-analysis of the deposited data

Results flagged for a closer look

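For 8 genes the KO effects in the 2 clones or at the 2 days lay far apart, by opposite signs on every array compared or by a small unadjusted p. None of the 8 passed the adjusted test of the difference with all arrays, and Tas2r108 passed without 1 array of clone 15, as given above. Between the clones, the KO effect in clone 10 minus that in clone 15 was -3.79 for Tas2r108 (limma adjusted p = 0.669), -2.80 for Msgn1 (0.754), 2.13 for Snai2 (0.754) and 5.31 for C8a (0.101) on the log2 scale. C8a, a complement component, read 10.0 to 48.3 in KO cells and 3.07 to 4.05 in control cells in clone 10, and 2.32 to 7.62 in KO cells and 8.94 to 44.1 in control cells in clone 15. Msgn1, a mesoderm transcription factor, read 16.4 to 67.0 in KO cells and 76.9 to 91.8 in control cells in clone 10, and 64.5 to 86.1 in KO cells and 18.5 to 48.4 in control cells in clone 15. Snai2 read 67.6 to 172 in KO cells and 36.5 to 52.1 in control cells in clone 10, and 24.1 to 45.1 in KO cells and 48.2 to 77.5 in control cells in clone 15. Its other probe set had a log2 fold change of 0.31 in clone 10.

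Between the days of clone 10, day 12 minus day 4, the difference was 2.72 for Hoxc9 (limma adjusted p = 0.812), -4.89 for Mrap2 (0.268), 4.71 for Cpne4 (0.387) and 5.39 for Ptprr (0.387). Mrap2 read 32.8 and 38.3 at day 4 and 5.66 and 7.78 at day 12 in KO cells, against 7.29 and 8.47 at day 4 and 47.2 and 40.1 at day 12 in control cells, and Ptprr read 4.01 and 3.01 at day 4 and 32.8 and 22.6 at day 12 in KO cells, against 37.8 and 22.4 at day 4 and 4.84 and 6.12 at day 12 in control cells. Cpne4 ranged over 4.76 to 29.4 in KO cells and 5.96 to 43.9 in control cells. Hoxc9 read 20.6 and 21.5 at day 4 and 175 and 86.4 at day 12 in KO cells, against 29.9 and 23.7 at day 4 and 31.1 and 17.96 at day 12 in control cells. All values of these 4 genes in clone 10 lie below the median intensity of the table, apart from 1 KO array of Hoxc9 at day 12. Groups of 2 arrays were not examined for outlying samples.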

How the results depend on the processing

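Over both days, the counts of 43 higher and 5 lower entries became 85 and 11 with low values raised to the 25th percentile, 101 higher with an offset of 32, 101 and 10 with an intensity trend, 103 and 11 among genes above the median, 121 and 10 with all 16 arrays, and 4 and 1 for calls at each day apart. Fits without 1 array gave 9 to 33 higher and 1 to 5 lower. At day 4 the counts of 4 and 1 became 19 and 2 with the floor, 18 higher with the offset, 17 higher with the trend, 13 higher above the median, 0 lower over every probe set and 20 and 2 with all 16 arrays. At day 12 the counts of 34 and 3 became 83 and 21 with the floor, 62 higher with the offset, 6 lower with the trend, 1 lower above the median, 16 higher over every probe set and 74 and 7 with all 16 arrays. Without 1 array they were 0 to 0 at day 4, and 0 to 1 higher and 0 to 0 lower at day 12. The difference between clones had 1 entry higher (Ms4a2) and 1 lower with the floor, 1 lower with the offset, the trend and above the median (each Rybp probe set 1428219_at), and 0 to 1 lower (Tas2r108) without 1 array. The difference between days had 0 calls in every fit run.

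Deviations of arrays with the same replicate number correlated at 0.172 at day 4 and 0.0525 at day 12, so the numbers were not taken to pair the samples. With the replicate number as a block, 0 and 0 entries passed over both days, at day 4 and at day 12. Over both days 2778 entries had an unadjusted p under 0.05 with the block (limma), against 1673 without it. Rybp had a log2 fold change of -4.74 at a limma adjusted p of 0.0533 and 0 list members passed. List members past the threshold, 20 higher and 0 lower, were 40 and 1 with all 16 arrays, and 3 were lower with the floor. Without 1 array the log2 fold change of Rybp lay between -4.86 and -4.58. No called entry changed direction in any of these fits. The arrays of every called entry did not overlap at either day, so none of these fits could reverse its sign. Of the 47 calls other than Rybp, 38 were kept with all 16 arrays, 26 over every probe set, 41 with the trend and 42 with the floor. Apart from fewer arrays or genes tested, the cause of these shifts was not tested.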

Other observations

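Genes that passed at day 12 but not over both days included germline genes with a smaller value at day 4. Stra8, given above, had log2 fold changes of 1.003 ± 0.26 at day 4 and 3.06 ± 0.26 at day 12 (limma adjusted p = 0.0319 at day 12). Tex12, a synaptonemal complex gene, read 140.2 and 98.6 at day 4 and 203 and 149.6 at day 12 in KO cells, against 46.3 and 82.2 at day 4 and 7.29 and 7.99 at day 12 in control cells, with 0.93 and 4.52. Spz1, a testis transcription factor, read 88.8 and 67.4 at day 4 and 115 and 116 at day 12 in KO cells, against 33.3 and 28.4 at day 4 and 3.75 and 6.42 at day 12 in control cells, with 1.33 and 4.56. Ly6k, a testis surface protein, read 159.99 and 113 at day 4 and 407 and 384 at day 12 in KO cells, against 59.0 and 59.0 at day 4 and 73.1 and 59.3 at day 12 in control cells (2.59 at day 12, limma adjusted p = 0.0419), and Sh3tc2 read 13.9 and 12.7 at day 4 and 175 and 139.8 at day 12 in KO cells, against 10.1 and 7.99 at day 4 and 16.9 and 12.5 at day 12 in control cells (3.43, limma adjusted p = 0.0284). Cdx2, a trophectoderm factor, read 22.0 and 34.8 at day 4 and 76.0 and 72.2 at day 12 in KO cells, against 41.3 and 42.5 at day 4 and 10.1 and 12.4 at day 12 in control cells. Its log2 fold change at day 12 was 2.73 (limma adjusted p = 0.0496), with all values under the median intensity of the table. The floored fold over both days was 1.40 for Cdx2, 2.35 for Sh3tc2, 3.20 for Spz1 and 3.43 for Tex12. The day 12 control arrays of Spz1 and Tex12 in clone 10 lay under the floor. In clone 15 those of Tex12 read 88.9 and 55.8. The log2 fold change over both days in clone 15 was 0.99 ± 0.20 for Tex12 and 3.52 ± 0.39 for Spz1. None of these genes passed the test of the difference between days.

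Of genes not lower in clone 10 by the test used in the report, 24 were lower under another setting, and the 4 that were so in 3 settings are given here. They were named after their values were seen. Nnat, an imprinted gene, read 139.6 and 115 at day 4 and 166 and 150.2 at day 12 in KO cells, against 250.1 and 195 at day 4 and 303 and 318 at day 12 in control cells (log2 fold change -0.89 ± 0.15, limma adjusted p = 0.119), and passed with the floor, above the median and with all 16 arrays. Insm1, a neuroendocrine transcription factor, read 301 and 199.7 at day 4 and 91.3 and 93.2 at day 12 in KO cells, against 702 and 525 at day 4 and 467 and 245 at day 12 in control cells (-1.59 ± 0.28, limma adjusted p = 0.128), and passed with the offset, with the trend and above the median. Rab25, an epithelial trafficking GTPase, read 155 and 237 at day 4 and 227 and 191 at day 12 in KO cells, against 331 and 439.7 at day 4 and 524 and 521 at day 12 in control cells (-1.16 ± 0.20, limma adjusted p = 0.125), and passed in the same 3 fits. Slc46a3 read 97.4 and 98.2 at day 4 and 79.3 and 128 at day 12 in KO cells, against 245 and 195 at day 4 and 282 and 223 at day 12 in control cells (-1.24 ± 0.20, limma adjusted p = 0.105), and passed with all 16 arrays, with the offset and above the median. In each of the 4 the KO arrays lay below the control arrays at both days.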
